A study of Mus musculus with 36 samples.

Results

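Complex I, the NADH:ubiquinone oxidoreductase of the mitochondrial inner membrane, was examined through the nuclear genes whose symbols start with Nduf. Members were chosen by symbol prefix alone, and a gene was included if it held a value in at least 1 library. Of 17873 genes with a value, 45 were members: 36 genes for structural subunits, 7 for assembly factors (Ndufaf1 to Ndufaf7), and the related pair Ndufa4 and Ndufa4l2. Each of the 45 held a value in all 36 libraries, and all 45 passed the filter on low values.

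Messenger RNA had been measured in 2 hind limb muscles of 1-year-old male mice: soleus, rich in slow fibres, and extensor digitorum longus (EDL), made mostly of fast fibres. The mice carried floxed genes for estrogen-related receptors (ERRs), a family of nuclear receptors that bind DNA at genes of oxidative metabolism, on the C57BL/6JBom background. Cre in the knockout animals was driven by the human alpha-skeletal actin (HSA) promoter, which is active in muscle fibres, so other cells of the muscle keep the receptors. Genotypes were ERRalpha mKO, ERRbeta/ERRgamma dmKO and ERRalpha/ERRgamma dmKO, each with its own wild-type littermates (WT), giving 12 groups of 3 libraries. Deposited columns were read as knockout or wild type from a mark in their names taken to stand for Cre, and the EDL columns of the ERRalpha class were placed by animal numbers shared with soleus, so "knockout-labelled" is used, and the direction of every change rests on that reading. Library numbers within a group follow the column order, and 14 animals gave a library of both muscles, with the same number in each.

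Complex I takes electrons from NADH and passes them through a flavin and a chain of iron-sulphur clusters to ubiquinone, while its membrane part pumps protons. Its peripheral arm is made of the N module, where NADH binds, and the Q module, where ubiquinone is reduced. The membrane arm has a proximal and a distal part. Core subunits carry the catalysis, accessory subunits surround them, and assembly factors help to build the complex without remaining in it. The core subunits of the membrane arm are encoded by mitochondrial DNA and were not analysed here. In muscle, complex I content follows the oxidative capacity of the fibres.

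Values are log2 signals, quantile normalized by the authors, and changes are knockout-labelled minus wild type, given ± SE from a limma fit over all genes (n = 3 libraries per group). A gene is called where its p, adjusted by Benjamini-Hochberg over all genes tested in that comparison, is under 0.05. Because the values were quantile normalized, the depth of a library is unknown; between 13667 and 14951 genes held a value in each. Levels are compared between libraries and not between genes, because scaling by gene length is not stated.

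The receptor genes and cell markers were read first. Esrra, which encodes ERRalpha, was 3.19, 2.90 and 3.20 in knockout-labelled and 5.38, 5.33 and 5.26 in wild-type EDL of the ERRalpha/ERRgamma class, and changed by -2.23 ± 0.12 there and by -0.57 ± 0.12 in soleus. It was not called in the ERRalpha class (-0.19 ± 0.12 in EDL, 0.33 ± 0.12 in soleus). Neither Esrrg nor Esrrb was called lower in the ERRbeta/ERRgamma class: Esrrg changed by 0.48 ± 0.15 in EDL and by a called 1.09 ± 0.15 in soleus, and Esrrb by -0.18 ± 0.21 and 0.28 ± 0.21. Esrrg was also called higher in both muscles of the ERRalpha/ERRgamma class (0.51 ± 0.15 and 1.21 ± 0.15). Esrrb was called lower in EDL of that class (-1.60 ± 0.21), and Esrrg higher in EDL of the ERRalpha class (0.61 ± 0.15). The targeted gene was thus called lower for Esrra in the ERRalpha/ERRgamma class and for none of the others, so the labels of the other 2 classes are not checked by these signals. A signal summed over a gene need not fall when one part of it is deleted, and whether that applies here was not tested. All 6 slow-fibre markers were higher and all 6 fast-fibre markers lower in wild-type soleus than in wild-type EDL. Between 14379 and 14835 genes were detected in knockout-labelled EDL libraries of the ERRalpha/ERRgamma class against 14033 to 14376 in their wild types, and 14751 to 14951 against 14316 to 14624 in soleus. That difference moved with the genotype, and its part in the results was not tested.

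The structural subunits fell almost as a whole in EDL with the ERRalpha/ERRgamma deletion. Of 36 subunits 35 were called lower and none higher, where 6.95% of all genes tested were called lower and 18.1% in either direction. The median change over the subunits was -1.03, against a median of 0.13 over all genes tested, and 19 subunits fell by more than 1 log2 unit. Within single libraries the median subunit signal was 6.33 to 6.44 in knockout-labelled and 7.54 to 7.59 in wild-type EDL. The 2 ranges stood far apart, and none of the 36 subunits overlapped between the groups (11.3% of all genes were lower without overlap). In bulk muscle RNA, a loss of oxidative fibres and a lower transcript level per fibre cannot be told apart.

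**Figure D1:**
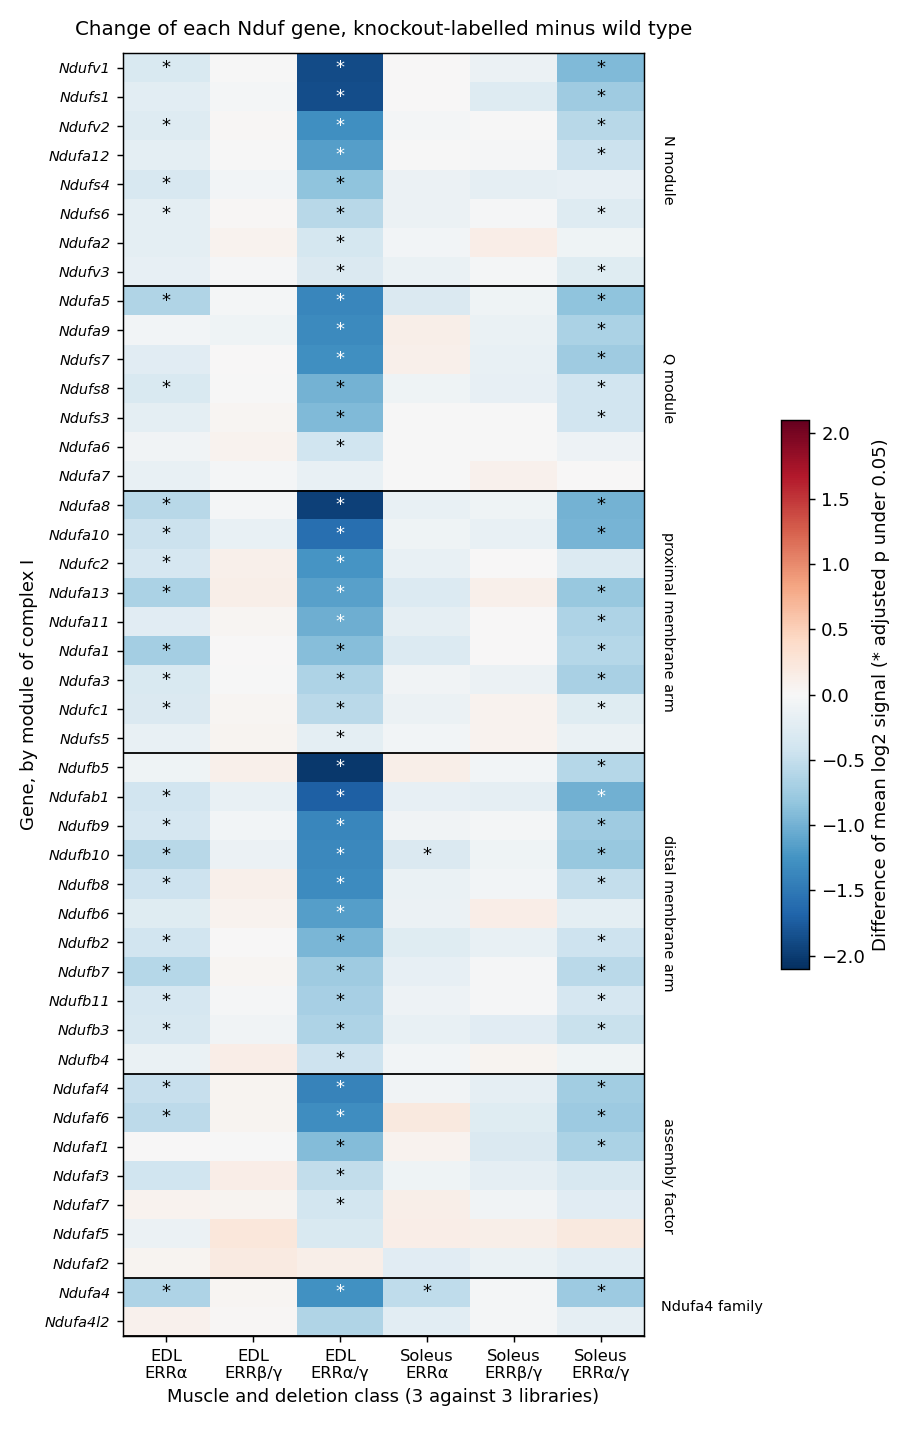
Change of 44 Nduf genes (rows, grouped by module and sorted by the change in EDL of the ERRalpha/ERRgamma class) in each muscle and deletion class (columns, 3 against 3 libraries). Colour gives the difference of mean log2 signal and a star marks a call; the third column is blue in nearly every row, and the ERRbeta/ERRgamma columns hold no star.

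Ndufb5, an accessory subunit of the distal membrane arm (chromosome 3, 32736990 to 32751566, plus strand, GRCm38), fell most. Its signal was 5.80, 5.90 and 6.06 in knockout-labelled and 7.83, 8.06 and 7.93 in wild-type EDL. All knockout-labelled libraries lay far under all wild types, with a change of -2.02 ± 0.083 (adjusted p = 2.11e-17), which leaves 24.7% of the wild-type level. Exons of Ndufb5 share 12.2% of their bases with Mrpl47, a gene on the other strand that encodes a mitochondrial ribosomal protein, and whether counting used strand is not given in the sources used here.

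Ndufa8, an accessory subunit that sits at the intermembrane-space face of the proximal membrane arm (chromosome 2, 36036326 to 36049406, minus strand), was 5.71, 5.59 and 5.67 in knockout-labelled libraries and 7.60, 7.58 and 7.66 in wild types. The spread within each group was small beside the gap, and the change was -1.95 ± 0.066 (adjusted p = 3.45e-19). Ndufv1, the core subunit of the N module that binds NADH and the flavin (chromosome 19, 4007384 to 4012806, minus strand), was 5.69, 5.58 and 5.85 against 7.45, 7.61 and 7.69. The groups did not overlap, and it changed by -1.88 ± 0.086 (adjusted p = 2.45e-16). Next came Ndufs1, the largest iron-sulphur core subunit (-1.87 ± 0.11), Ndufab1, the mitochondrial acyl carrier protein (-1.72 ± 0.065), and Ndufa10, a kinase-like subunit of the proximal arm (-1.58 ± 0.075). These 6 genes left between 24.7% and 33.3% of the wild-type level.

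The fall reached every module. In the N module 8 of 8 subunits were called lower (median -0.99), in the Q module 7 of 8 (-1.02), in the proximal membrane arm 9 of 9 (-1.02) and in the distal membrane arm 11 of 11 (-1.16). The 7 nuclear core subunits were all called lower, with a median of -1.28. Subunits of 1 module nevertheless differed widely in size of change. In the N module Ndufv1 changed by -1.88, whereas Ndufv3, an accessory subunit beside it, changed by -0.30 ± 0.074.

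At the other end of the range, Ndufa7, a small accessory subunit of the Q module (chromosome 17, 33824572 to 33838317, plus strand), had the smallest change of the 36. It was 7.32, 7.34 and 7.31 in knockout-labelled and 7.51, 7.45 and 7.46 in wild-type EDL, a difference of -0.15 ± 0.065 (adjusted p = 0.104, 95% interval -0.29 to -0.02). Its libraries did not overlap, and after each library was centred on its median gene it was called (adjusted p = 0.0381). Ndufs5, a subunit of the intermembrane-space face, was 7.47, 7.54 and 7.55 against 7.80, 7.65 and 7.72 and fell by 0.20 on the log2 scale (SE 0.063, adjusted p = 0.0219). Both estimates were thus below 0 but smaller in size than those of most other subunits.

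**Figure D2:**
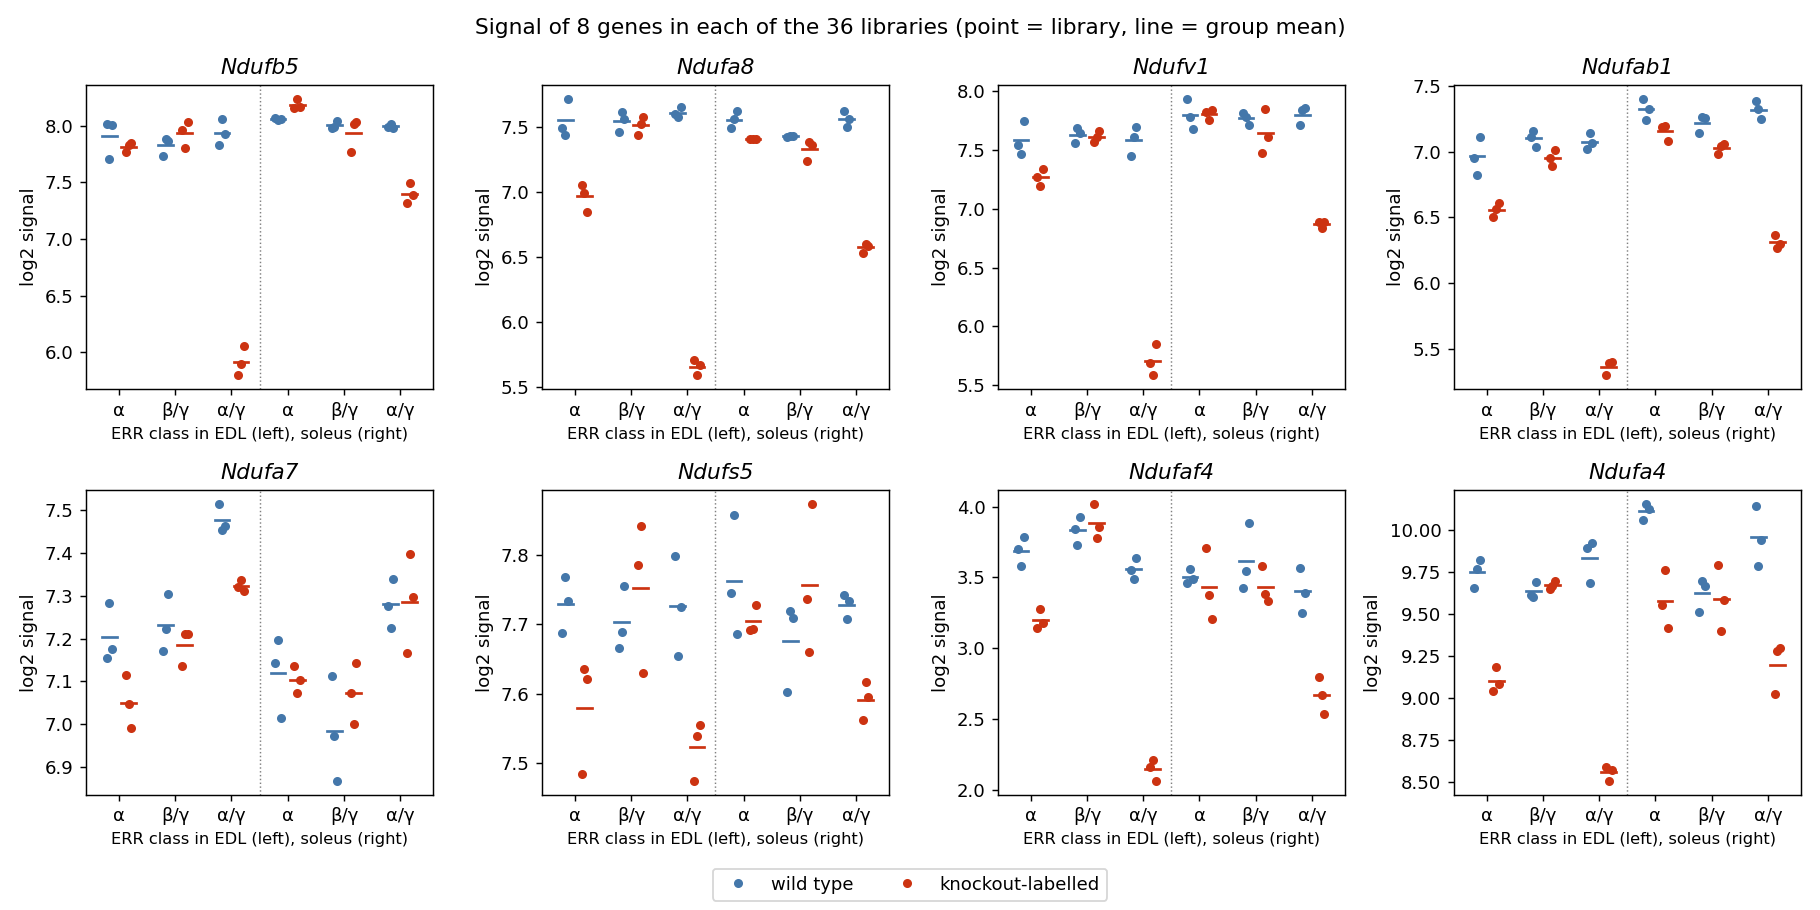
Log2 signal (y axis, a separate scale per panel) of 8 Nduf genes in each of the 36 libraries, by ERR class in EDL (left of the dotted line) and soleus (right); blue points are wild-type and red points knockout-labelled libraries, and lines are group means. Ndufb5, Ndufa8, Ndufv1, Ndufab1, Ndufaf4 and Ndufa4 show their lowest points in EDL of the ERRalpha/ERRgamma class, while Ndufa7 and Ndufs5 vary over less than 1 log2 unit in all.

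The promoters of these genes were read for the DNA core that ERRs bind, since the members moved together. Windows of 300 bases (250 before to 50 after the RefSeq start, GRCm38.p6) were given for 39 of the 45 members. The core AAGGTCA, searched on both strands, was in 3 of 39 (7.69%), against 5.38% of 27025 genes with such windows. The extended form TNAAGGTCA, which contains the core, was in 1 of 39 (2.56%) against 1.43%. A match is a run of letters and not a measured site, and no match says only that these letters are not in this window. The stretches with the matches are shown first, 5′ to 3′ on the gene's strand with the match in capitals, to show where in each promoter it lies. Ndufb2 (chr6:39592315-39592564, plus) and Ndufs5 (chr4:123718203-123718436, minus) have the core alone, and Ndufb4 (chr16:37654406-37654435, minus) has the extended form. The last line is Ndufa8 (chr2:36049407-36049457, minus), the gene with the largest fall that has bases outside annotated exons there, and it holds no match. Bases inside GENCODE exons are left out except for the 30 around the Ndufb4 match.
Ndufb2: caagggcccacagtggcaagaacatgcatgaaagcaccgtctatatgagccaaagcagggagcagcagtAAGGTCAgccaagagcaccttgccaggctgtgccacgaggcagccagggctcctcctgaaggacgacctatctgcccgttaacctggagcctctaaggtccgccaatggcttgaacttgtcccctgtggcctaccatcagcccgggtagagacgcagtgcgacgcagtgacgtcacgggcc
Ndufs5: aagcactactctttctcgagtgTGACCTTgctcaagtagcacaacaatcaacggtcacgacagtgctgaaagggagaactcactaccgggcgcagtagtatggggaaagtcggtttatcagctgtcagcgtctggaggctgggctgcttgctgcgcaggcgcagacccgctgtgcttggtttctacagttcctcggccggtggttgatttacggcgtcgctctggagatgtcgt
Ndufb4: ttcctgagccTGAAGGTCAgactcgagagg
Ndufa8: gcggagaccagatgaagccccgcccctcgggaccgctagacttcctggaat
The match in Ndufb2 begins 181 bases before the RefSeq start, that in Ndufs5 228 bases and the extended match in Ndufb4 57 bases before it. With the ERRalpha/ERRgamma deletion these 3 genes changed in EDL by -0.96, -0.20 and -0.43, each less than the median subunit. In the ERRalpha class they ran from -0.41 to -0.14 in EDL and from -0.26 to -0.06 in soleus. The median subunit there changed by -0.32 and -0.11, so not all of them fell less than it. The part of the match in these changes was not tested. No base of the Ndufb5 window upstream of its start lies outside an exon of that gene or of its neighbours.

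In soleus of the ERRalpha/ERRgamma class the fall was shallower. Of 36 subunits 28 were called lower and none higher, where 5.86% of all genes tested were called lower and 12.7% in either direction. The median change was -0.53, against 0.11 over all genes, and the median subunit signal per library was 7.04 to 7.21 in knockout-labelled and 7.53 to 7.60 in wild-type soleus. The groups of 31 subunits did not overlap (10.4% of all genes were lower without overlap). All 28 were among the 35 called in EDL, so they make up 28 of 35 of the EDL list.

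Ndufab1 was 6.36, 6.27 and 6.30 in knockout-labelled and 7.39, 7.33 and 7.25 in wild-type soleus, and fell most (-1.01 ± 0.065, adjusted p = 7.49e-12). Ndufa8 was 6.53, 6.61 and 6.59 against 7.62, 7.51 and 7.57 (-0.99 ± 0.066, adjusted p = 1.06e-11). Ndufa10 was 6.23, 6.30 and 6.33 against 7.26, 7.28 and 7.23 (-0.97 ± 0.075, adjusted p = 1.88e-10). In each of the 3 genes every knockout-labelled library lay under every wild type by more than the spread within either group. Ndufa7 did not move measurably, at 7.17, 7.40 and 7.30 against 7.28, 7.22 and 7.34 (0.01 ± 0.065, 95% interval -0.13 to 0.14). By module 6 of 8 subunits of the N module, 6 of 8 of the Q module, 7 of 9 of the proximal and 9 of 11 of the distal membrane arm were called lower, and all 7 core subunits among them.

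Whether the fall differed between the muscles was tested on the difference itself, as the soleus change minus the EDL change. In the ERRalpha/ERRgamma class 21 of 36 subunits were called, all with the smaller fall in soleus, where 1.5% of all genes tested were called in that direction and 2.07% in either. The fall was larger in EDL for 35 of 36 subunits, and the median difference was 0.53. Ndufb5 showed the largest, 1.42 ± 0.12 (adjusted p = 6.68e-09): its soleus values were 7.32, 7.49 and 7.39 against 7.99, 8.02 and 7.98 in wild types, a change of -0.60 ± 0.083. Ndufs1 followed with 1.12 ± 0.15 and Ndufa8 with 0.96 ± 0.093. The order of the subunits was alike in both muscles, with a Pearson correlation of 0.79 and a Spearman correlation of 0.79 across the 36 genes. That correlation is a description: the points come from the same libraries and in part from the same animals, and genes are not independent replicates.

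Some subunits fell in EDL and were not called in soleus, and for 3 of them the difference was called. Ndufc2, a membrane-arm subunit, changed by -1.24 ± 0.097 in EDL and by -0.28 ± 0.097 in soleus (difference 0.96 ± 0.14). Ndufb6, of the distal membrane arm, changed by -1.16 ± 0.078 and by -0.21 ± 0.078 (difference 0.95 ± 0.11). Ndufs4, an accessory subunit of the N module, changed by -0.84 and by -0.18 (difference 0.66). After each library was centred on its median gene all 3 were also called lower in soleus. Exons of Ndufb6 share 39.0% of their bases with Smim27 on the other strand.

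**Figure D3:**
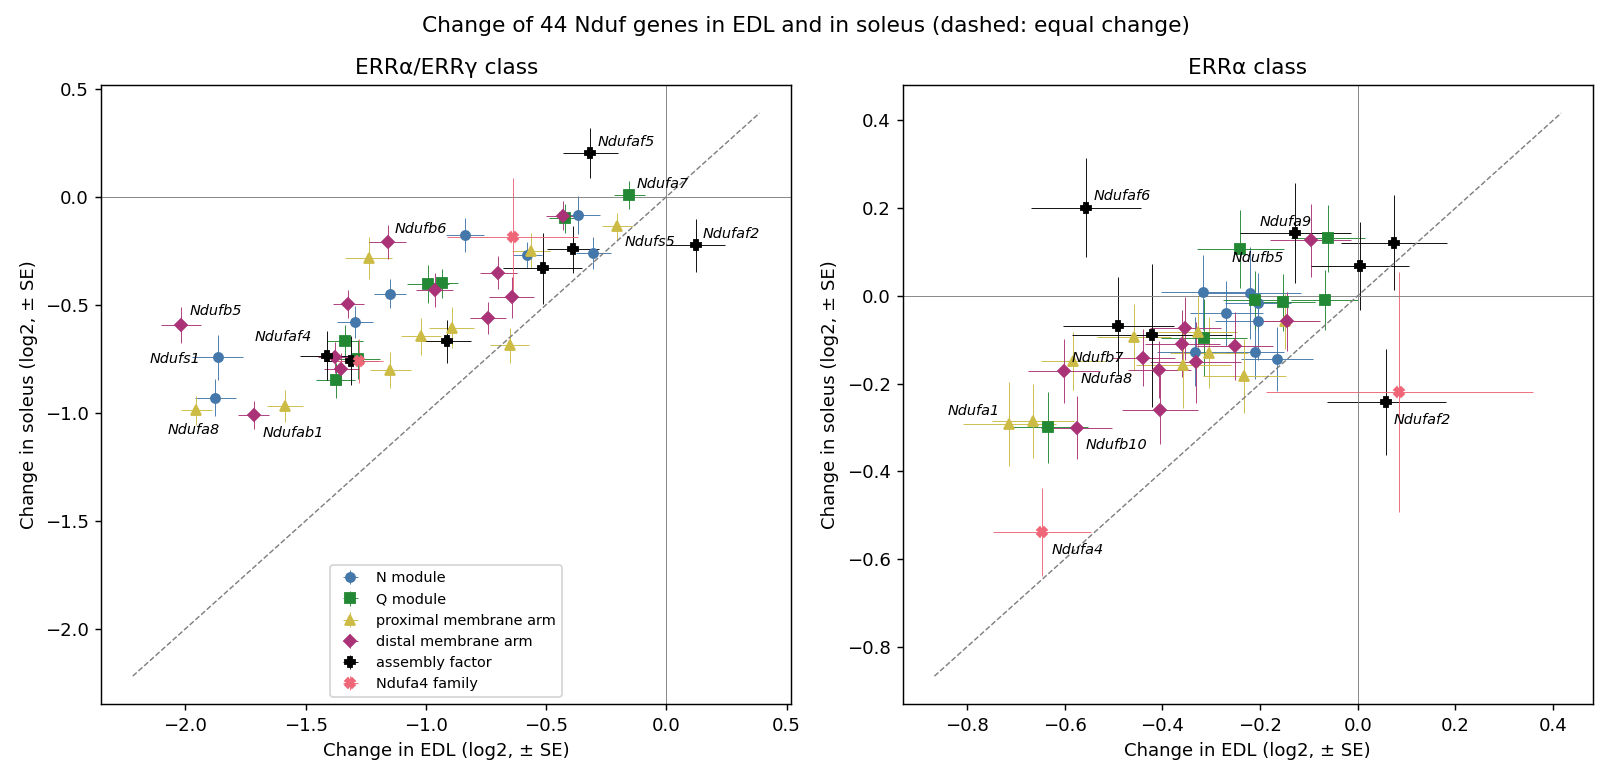
Change in soleus (y axis) against change in EDL (x axis), log2 with SE bars, for 44 Nduf genes in the ERRalpha/ERRgamma class (left) and the ERRalpha class (right); marker and colour give the module and the dashed line marks equal change. On the left most points lie above the dashed line, which is the smaller fall in soleus, with Ndufb5 farthest from it (-2.02 against -0.60).

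The ERRalpha deletion alone gave smaller falls in EDL. Of 36 subunits 22 were called lower and none higher, where 1.46% of all genes tested were called lower and 3.28% in either direction. The median change was -0.32 against 0.018 over all genes, and all 36 estimates were below 0, from -0.71 to -0.06. The groups of 30 subunits did not overlap (9.1% of all genes were lower without overlap). The count rests in part on single libraries: it was 14 without knockout-labelled library 1, 14 without knockout-labelled library 2 and 13 without wild-type library 3. It was also 14 when only the 2 groups compared entered the fit.

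Ndufa1, a small X-linked subunit of the proximal membrane arm, fell most. It was 6.27, 6.28 and 6.49 in knockout-labelled and 7.03, 6.95 and 7.20 in wild-type EDL (-0.71 ± 0.095, adjusted p = 1.92e-05). Ndufa13, also known as GRIM-19, was 5.60, 5.58 and 5.72 against 6.19, 6.24 and 6.46 (-0.67 ± 0.084, adjusted p = 9.6e-06); its exons share 29.98% of their bases with Tssk6 on the other strand. Ndufa5, an accessory subunit of the Q module, was 7.05, 7.02 and 7.18 against 7.63, 7.60 and 7.93 (-0.63 ± 0.081, adjusted p = 1.05e-05). The libraries of these 3 genes did not overlap, and each left between 61.0% and 64.4% of the wild-type level. By module 4 of 8 subunits of the N module, 3 of 8 of the Q module, 7 of 9 of the proximal and 8 of 11 of the distal membrane arm were called.

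Some subunits with large falls in the ERRalpha/ERRgamma class were among the larger falls in the ERRalpha class too, and others barely moved there. Ndufa8 changed by -0.58, Ndufa10 by -0.46 and Ndufab1 by -0.41 with the ERRalpha deletion in EDL, all 3 called. Ndufb5 was 7.77, 7.83 and 7.85 in knockout-labelled and 8.02, 7.71 and 8.01 in wild-type EDL of the ERRalpha class, with overlapping groups and a difference of -0.10 ± 0.083. Ndufa9, a subunit of the Q module that helps to join the arms, was 7.26, 7.32 and 7.27 against 7.39, 7.25 and 7.38 (-0.06 ± 0.076), while it changed by -1.34 ± 0.076 in the ERRalpha/ERRgamma class. Across the 36 subunits the changes in the 2 classes, which have separate wild types, had a Pearson correlation of 0.29 and a Spearman correlation of 0.36, as a description.

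The difference between the classes was tested directly in EDL. Of 36 subunits 25 fell further in the ERRalpha/ERRgamma than in the ERRalpha class and none less, where 3.48% of all genes tested were called in that direction and 4.81% in either. Ndufb5 differed most (-1.92 ± 0.12), then Ndufs1 (-1.64 ± 0.15), Ndufv1 (-1.56 ± 0.12) and Ndufa8 (-1.37 ± 0.093). Ndufa1 and Ndufb7 were among the subunits for which no difference was called, with intervals of -0.46 to 0.10 and -0.35 to 0.07. In soleus 20 of 36 fell further in the ERRalpha/ERRgamma class, where 2.93% of all genes were called lower and 4.77% in either direction, led by Ndufv1 (-0.94 ± 0.12) and Ndufa10 (-0.88 ± 0.11).

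In soleus of the ERRalpha class a single subunit was called. Ndufb10, of the distal membrane arm, was 8.06, 7.88 and 7.99 in knockout-labelled and 8.25, 8.28 and 8.29 in wild-type soleus (-0.30 ± 0.072, adjusted p = 0.0464), where 0.247% of all genes tested were called lower and 0.71% in either direction. This single call was lost after recentring, in the fit of the 2 groups alone, without the intensity trend, and whenever any 1 library of the 2 groups was left out. At an unadjusted p under 0.05 there were 12 of 36 subunits, against 10.8% of all genes. The groups of 16 subunits were lower without overlap, as were those of 8.74% of all genes, and Ndufb5 was higher without overlap but not called (0.13 ± 0.083). The median change was -0.11, and 31 of 36 estimates were below 0. All 36 subunits had a lower estimate in EDL than in soleus of this class, but none of these differences was called with limma (0.0151% of all genes were), and 17 had an unadjusted p under 0.05, against 7.28% of all genes. With animal number as a block, which uses the animals shared by the muscles, 1 subunit was called.

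No subunit was called in the ERRbeta/ERRgamma class in either muscle. In EDL 2 of 36 had an unadjusted p under 0.05, where 7.14% of all genes did and 0.218% were called with limma. The estimates ran from -0.15 to 0.13, with all 95% intervals between -0.31 and 0.30. Slow-fibre marker sums in these EDL libraries were 3.60 to 4.91 in knockout-labelled and 6.27 to 6.39 in wild types, apart from each other, with 2 of 6 called lower, and their part in these values was not tested. In soleus 5 of 36 had an unadjusted p under 0.05, where 21.3% of all genes did and 6.71% were called. The estimates ran from -0.27 to 0.14, and after recentring 3 subunits were called lower (Ndufab1, Ndufb3 and Ndufs4). Ndufab1 was 6.98, 7.04 and 7.06 in knockout-labelled and 7.14, 7.26 and 7.25 in wild-type soleus (-0.19 ± 0.065, adjusted p = 0.0746).

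Compared directly, 33 of 36 subunits fell further in the ERRalpha/ERRgamma than in the ERRbeta/ERRgamma class in EDL, where 4.06% of all genes were called lower and 6.87% in either direction. In soleus 20 of 36 did, where 0.883% of all genes were called lower and 1.2% in either direction. The soleus count was 6 when only the 4 groups compared entered the fit. Ndufa13 led in soleus (-0.91 ± 0.12), then Ndufa8 (-0.89 ± 0.093).

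The assembly factors followed the subunits in part. Of the 7 Ndufaf genes 2 were called lower in EDL of the ERRalpha class, then 5 in EDL and 3 in soleus with the ERRalpha/ERRgamma deletion. The shares of all genes called lower in these comparisons were 1.46%, 6.95% and 5.86%. No Ndufaf gene was called higher in any knockout comparison. Ndufaf4, which works with Ndufaf3 on the early Q module, was 2.16, 2.21 and 2.06 in knockout-labelled and 3.55, 3.49 and 3.63 in wild-type EDL of the ERRalpha/ERRgamma class (-1.41 ± 0.11, adjusted p = 6.37e-11). It was 2.80, 2.67 and 2.54 against 3.57, 3.25 and 3.39 in soleus (-0.74 ± 0.11), and the difference between muscles was called (0.68 ± 0.16). With the ERRalpha deletion it was 3.14, 3.28 and 3.18 in EDL against 3.70, 3.58 and 3.79 (-0.49 ± 0.11). Ndufaf4 thus fell in each of these 3 comparisons, with no overlap in any.

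Ndufaf6, an early assembly factor, was 2.68, 2.49 and 2.33 in knockout-labelled and 3.85, 3.77 and 3.81 in wild-type EDL of the ERRalpha/ERRgamma class (-1.31 ± 0.11). In soleus it was 2.09, 2.56 and 2.60 against 3.20, 3.10 and 3.22 (-0.76 ± 0.11). Its values in EDL with the ERRalpha deletion were 3.28, 3.62 and 3.28 against 3.90, 3.89 and 4.04 (-0.56 ± 0.11). Its soleus estimate in the ERRalpha class was 0.20 ± 0.11, and the difference between the muscles there (0.76 ± 0.16) was not called (adjusted p = 0.11). Ndufaf1, which acts with Ecsit and Acad9 on the membrane arm, was 3.75, 3.70 and 3.76 against 4.49, 4.82 and 4.65 in EDL with the ERRalpha/ERRgamma deletion (-0.91 ± 0.10) and 4.19, 3.96 and 4.06 against 4.71, 4.83 and 4.67 in soleus (-0.67 ± 0.10). It was level in EDL of the ERRalpha class, at 4.47, 4.57 and 4.65 against 4.42, 4.63 and 4.62, where the 95% interval of the change was -0.20 to 0.21.

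Of the remaining 4, 2 were called in a knockout comparison. Ndufaf3, in EDL with the ERRalpha/ERRgamma deletion, was 2.87, 2.65 and 2.52 against 3.18, 3.53 and 2.88, and fell by a called 0.51 (SE 0.16, adjusted p = 0.0266). Ndufaf7, a methyltransferase, was 2.39, 2.43 and 2.48 against 2.79, 2.74 and 2.93 (-0.39 ± 0.11, adjusted p = 0.0107). Neither was called in any other knockout comparison. Ndufaf5, which modifies Ndufs7, was 3.81, 3.34 and 3.58 against 3.96, 3.77 and 3.95 (-0.32 ± 0.11, adjusted p = 0.0531, called after recentring). Ndufaf2, a relative of the subunit Ndufa12, was 3.22, 3.08 and 3.32 against 3.09, 3.12 and 3.04 (0.12 ± 0.12). Knockout-labelled and wild-type libraries overlapped for both Ndufaf5 and Ndufaf2.

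Of 12 further assembly factors with other names, 7 were called lower in EDL and 7 in soleus of the ERRalpha/ERRgamma class. In EDL of the ERRalpha class 1 was called lower. Of all genes tested, 6.95%, 5.86% and 1.46% were called lower in these comparisons, in that order. None was called higher in these comparisons, and 2 of 12 estimates were above 0 in each. Aifm1, which has a role in the import of small complex I subunits, changed by -1.01 ± 0.082 in EDL and -0.62 ± 0.082 in soleus. Foxred1 changed by -0.82 ± 0.14 and -0.78 ± 0.14, and Timmdc1, a factor for the membrane arm, by -0.80 ± 0.092 and -0.56 ± 0.092. Their median was -0.53 in EDL and -0.29 in soleus.

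Ndufa4, first described with complex I and now counted with cytochrome c oxidase, was called lower in 4 comparisons. With the ERRalpha/ERRgamma deletion its EDL values were 8.59, 8.51 and 8.57 against 9.89, 9.69 and 9.92 (-1.28 ± 0.10), and in soleus 9.02, 9.28 and 9.30 against 10.15, 9.79 and 9.94 (-0.76 ± 0.10). In the ERRalpha class it was 9.04, 9.19 and 9.08 against 9.66, 9.77 and 9.83 in EDL (-0.65 ± 0.10) and 9.55, 9.76 and 9.42 against 10.06, 10.16 and 10.13 in soleus (-0.54 ± 0.10, adjusted p = 0.00881). Its libraries overlapped in none of the 4. The hypoxia-responsive relative Ndufa4l2 was called in no comparison, at 1.78, 1.13 and 2.09 against 2.08, 2.26 and 2.57 in EDL with the ERRalpha/ERRgamma deletion (-0.64 ± 0.27) and between 1.05 and 2.57 in all wild-type libraries.

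**Figure D4:**
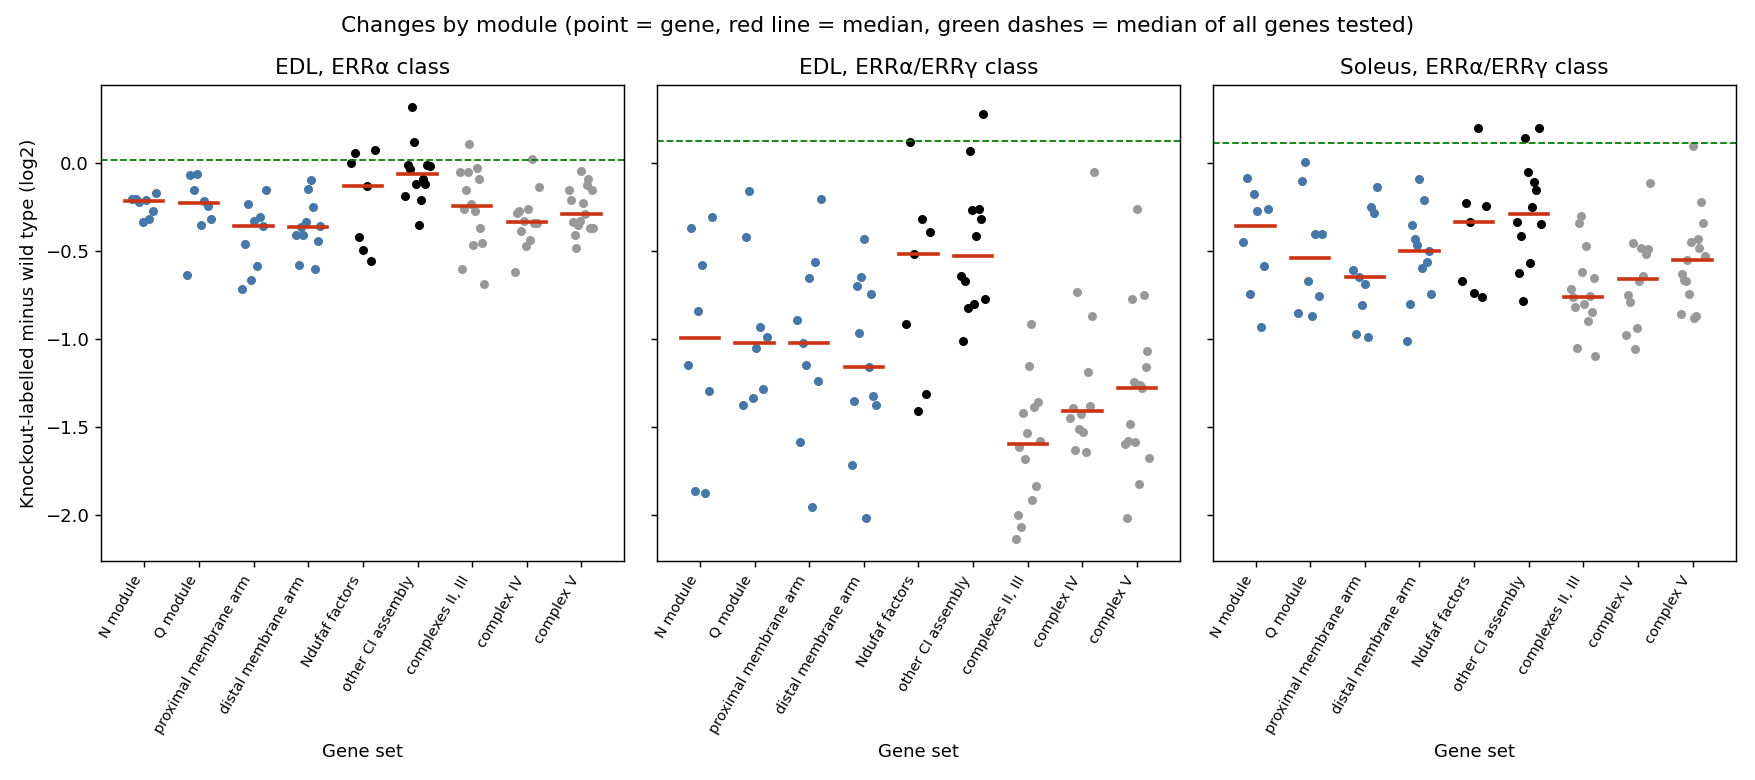
Change (y axis, log2) of each gene by set (x axis) in EDL of the ERRalpha class and in EDL and soleus of the ERRalpha/ERRgamma class; points are genes, red lines set medians and green dashes the median of all genes tested. The middle panel has the medians of the 4 complex I modules between -0.99 and -1.16 and those of complexes II and III, IV and V lower, at -1.60, -1.41 and -1.28.

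The rest of the respiratory chain gives the frame for these sizes. With the ERRalpha/ERRgamma deletion, EDL had 14 of 14 listed genes for complexes II and III called lower (median -1.60). That list includes Cycs, the gene for cytochrome c. For complex IV, a list without Ndufa4, 11 of 12 were called lower in this EDL comparison (-1.41), and for complex V 15 of 15 (-1.28). In soleus of that class the counts were 14 of 14, 11 of 12 and 13 of 15, with medians of -0.76, -0.66 and -0.55. Of all genes tested, 6.95% were called lower in EDL and 5.86% in soleus, with median changes of 0.13 and 0.11. Complex I had the smallest median fall of the 4 sets in both muscles of that class, by little in soleus (-0.53). This order did not hold in the ERRalpha class. There the medians of complexes I, II and III, IV and V were -0.32, -0.24, -0.33 and -0.28 in EDL. In soleus they were -0.11, -0.01, -0.05 and -0.03. These orders are a description with no test.

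Marker genes of other cells and fibres were set beside these results. For the ERRalpha/ERRgamma class, 4 of 6 slow-fibre markers were called higher in EDL, while their summed level overlapped (log2 of the sum 3.92 to 6.92 in knockout-labelled, 4.07 to 6.28 in wild-type libraries). None of 6 fast-fibre markers was called, with sums of 14.07 to 14.17 against 14.04 to 14.21. All 6 endothelial markers had estimates below 0 in each muscle of that class, and 1 of 6 was called lower in each (3 of 6 in EDL after recentring), with sums of 5.27 to 5.75 against 5.58 to 6.02 in EDL and 5.90 to 6.07 against 6.24 to 6.26 in soleus. In soleus 1 fast-fibre marker was called lower and 2 higher, and 1 of 6 Schwann cell markers was lower. Of all genes tested, 18.1% were called in EDL of that class (6.95% lower) and 12.7% in soleus (5.86% lower). No fibroblast, leukocyte or adipocyte marker was called in either muscle of the class, and every marker of the 7 lists had a value in each of its groups. In soleus all 6 estimates of each of these lists were above 0, with medians of 0.43, 0.65 and 0.70. In EDL 5, 4 and 0 of 6 were above 0. Fibroblast sums in soleus were 8.774 to 9.018 in knockout-labelled and 7.772 to 8.770 in wild-type libraries, just apart. Leukocyte and adipocyte sums overlapped there. With the ERRalpha deletion in EDL none of 6 endothelial markers was called, with sums of 5.06 to 5.20 against 5.23 to 5.50. In that comparison 3.28% of all genes tested were called. The part of any of these marker genes, or of the cells they mark, in the complex I changes was not tested.

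Wild-type soleus and EDL differed in subunit transcripts in both directions, about as often as other genes did. Over 9 libraries each, 10 of 36 subunits were called higher in soleus and 9 lower, where 30.8% of all genes were called higher, 23.6% lower and 54.4% in either direction. The split turned with the scaling: after recentring it was 7 higher and 14 lower. The median difference was 0.03, against 0.077 over all genes (-0.03 after recentring). Some of these wild-type animals gave a library of both muscles, which the main fit treats as independent. With animal number as a block the calls of all 45 members stayed the same.

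Ndufb3, of the distal membrane arm (chromosome 1, 58586384 to 58595964, plus strand), stood apart. Its signal ran from 7.65 to 7.84 in wild-type soleus (median 7.77) and from 6.77 to 7.27 in wild-type EDL (median 6.99), without overlap, a difference of 0.75 ± 0.054 (adjusted p = 9.36e-13). Ndufa11, a membrane-arm subunit near the contact with complex III, ran from 4.74 to 5.23 (median 4.99) against 4.36 to 4.87 (median 4.66) and was higher by 0.38 ± 0.049. Ndufv3 ran from 5.32 to 5.79 (median 5.48) against 5.04 to 5.48 (median 5.21) and was higher by 0.30 ± 0.043. Both genes overlapped in single libraries.

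Other subunits were lower in soleus. Ndufs7, a core subunit of the Q module, ran from 6.88 to 7.29 (median 7.10) in soleus against 7.38 to 7.56 (median 7.50) in EDL and differed by -0.34 ± 0.051, without overlap. Ndufb4 ran from 7.96 to 8.34 (median 8.18) against 8.30 to 8.60 (median 8.45) and differed by -0.34 ± 0.039, with slight overlap. In the Q module 4 of 8 subunits were called lower and 1 higher in soleus. Of all genes tested, 23.6% were called lower and 54.4% in either direction. After recentring 5 subunits of the Q module were called lower and none higher.

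**Figure D5:**
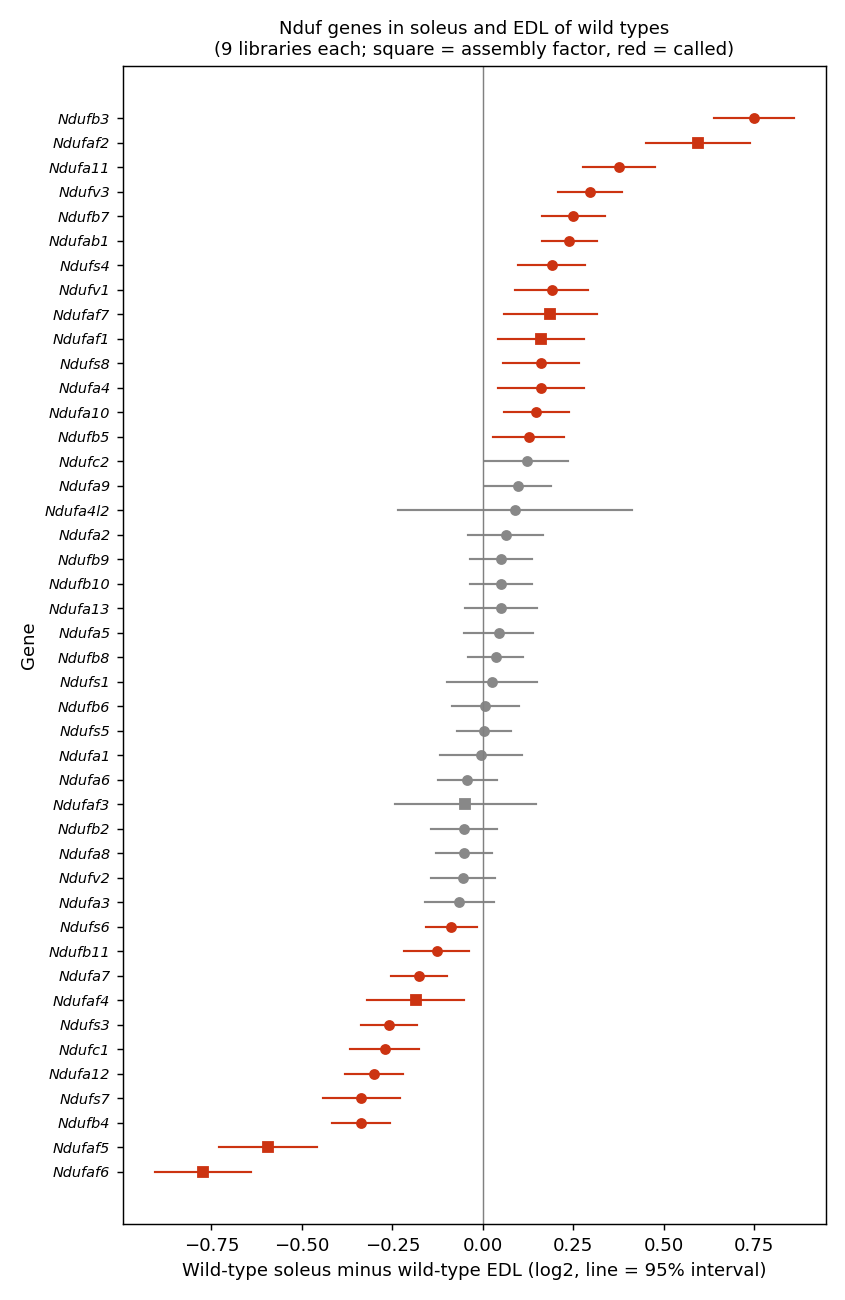
Difference between wild-type soleus and wild-type EDL (x axis, log2, lines are 95% intervals, 9 libraries each) for 44 Nduf genes, sorted; circles are subunits and the Ndufa4 pair, squares assembly factors, and red marks a call. Ndufb3 lies at the top (0.75) and the assembly factors Ndufaf5 (-0.59) and Ndufaf6 (-0.77) at the bottom.

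Of the 7 assembly factors, 3 differed between the muscles by more than 0.5 log2 units. Ndufaf6 ran from 2.92 to 3.31 in soleus (median 3.10) and from 3.77 to 4.04 in EDL (median 3.89), a difference of -0.77 ± 0.065. Ndufaf5 ran from 3.07 to 3.44 (median 3.18) against 3.54 to 3.96 (median 3.83), a difference of -0.59 ± 0.066. Neither overlapped between the muscles, and both were higher in EDL. In the other direction Ndufaf2 ran from 3.32 to 3.75 (median 3.68) against 2.65 to 3.34 (median 3.04), a difference of 0.59 ± 0.070, with overlap at the edge. Smaller differences were called for Ndufaf4 (-0.19 ± 0.066), Ndufaf7 (0.19 ± 0.063), Ndufaf1 (0.16 ± 0.058) and Ndufa4 (0.16 ± 0.058), of which the last 3 were lost after recentring. Ndufaf3 (-0.05 ± 0.095) and Ndufa4l2 (0.09 ± 0.16) were not called. In this comparison 54.4% of all genes tested were called in either direction.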

How the data were processed

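The deposited table holds log2 signals per gene that the authors quantile normalized between libraries, per the name of the deposited table; Partek 6.6 and 2 build names, GRCm38.p6 and mm10, stand in the submitters' processing notes. How reads were aligned and counted, whether strand was used, and the unit before the logarithm were not stated there. The log base was read from the spacing of the lowest values: of 18115 steps above the lowest value in 1440 genes, 4083 lay near 1 and 115 near 0.6. Empty cells stayed missing. Values of 1 member are not reported here by name; it is part of the counts and medians. Of 45802 rows, 27904 held no value, and 25 rows with a date in place of a symbol were left out. Genes with a mean above the 25th percentile (-5.24) were tested, 13404 in all.

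The members, gene lists and tests were chosen with earlier results of these data known. Full values are given for the largest called falls of each comparison, the least changed subunit, the assembly factors, the Ndufa4 pair, the extremes between muscles and the receptors; other genes were named after their values were seen. Limma 3.58.1 (R 4.3.3) with an intensity trend was fitted to all 36 libraries with 1 mean per group, and p-values were adjusted by Benjamini-Hochberg. Every adjusted p comes from limma. The test was checked on simulated data. Alternatives were recentring, no filter, missing values set to the lowest value, no trend, only the groups compared, animal number as a block, and leaving out each library. Replicates are separate biological samples per the series' design text. Animal numbers in the column names link 14 animals across both muscles; over these pairs the correlation of deviations from the group means ran from -0.068 to 0.324. Positions are from GENCODE M21 (GRCm38).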

Additional observations from a re-analysis of the deposited data

Results flagged for a closer look

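The soleus change minus the EDL change differed from 0 in the ERRalpha/ERRgamma class for 21 of 36 subunits and 1 assembly factor, by limma's test of that difference (Benjamini-Hochberg adjusted p under 0.05), and in each of them the fall was larger in EDL. The difference was 1.42 for Ndufb5, 1.12 for Ndufs1, 0.96 for Ndufa8, 0.96 for Ndufc2, 0.95 for Ndufb6, 0.94 for Ndufv1 and 0.83 for Ndufb8. Values between 0.6 and 0.75 were found for Ndufv2 (0.71), Ndufab1 (0.71), Ndufa12 (0.70), Ndufaf4 (0.68), Ndufa9 (0.67), Ndufs4 (0.66), Ndufb9 (0.63) and Ndufa10 (0.62). Smaller differences were called for Ndufs8 (0.59), Ndufb10 (0.55), Ndufb2 (0.53), Ndufs3 (0.53), Ndufa5 (0.53), Ndufs7 (0.53) and Ndufs6 (0.31). Ndufc2, Ndufb6 and Ndufs4 apart, each of these genes was also called lower in soleus. The soleus estimates of Ndufc2, Ndufb6 and Ndufs4 were below 0 as well. The estimates of all these genes thus differed in size between the muscles and not in direction.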

How the results depend on the processing

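Subunit calls in both muscles of the ERRalpha/ERRgamma class stayed within 1.5 times under every alternative, at 34 to 35 in EDL and 26 to 30 in soleus when 1 library was left out. In EDL of the ERRalpha class the 22 calls became 14 with only the groups compared and 13 to 23 with 1 library left out. In soleus of that class the 1 call became 0 after recentring, with only the groups compared and without the trend, and ranged from 0 to 0 with 1 library left out. In soleus of the ERRbeta/ERRgamma class recentring gave 3 calls, and leaving out 1 library gave 0 to 1. Recentring turned wild-type soleus against EDL from 10 higher and 9 lower to 7 higher and 14 lower, 21 in all. Against the ERRbeta/ERRgamma class, the 20 subunits with a larger fall in soleus became 6 with only the groups compared. The cause of these shifts was not tested. With animal number as a replicate block (correlation 0.137), 1 subunit was called for the muscle difference in the ERRalpha class; the other counts of subunits were 22 in EDL of the ERRalpha class, 35 and 29 in EDL and soleus of the ERRalpha/ERRgamma class, and 22 for their difference. For single members, over the 6 knockout comparisons and wild-type soleus against EDL, 114 alternatives lost a call, 31 gained one and 0 reversed. Depth is unknown, so counting error cannot be given.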
